A study of Mus musculus with 16 samples.

Results

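The transcripts described here are those of 10 mouse genes of bile acid synthesis, taken by symbol from a table of 35275 genes measured in liver. They comprise the hydroxylases Cyp7a1, Cyp8b1, Cyp27a1 and Cyp7b1, the ring-modifying enzymes Hsd3b7 and Akr1d1, the conjugating enzymes Slc27a5 and Baat, and the nuclear receptors Nr1h4 and Nr0b2. All 10 were found in the table and all 10 passed the filter on low values (at least 1 FPKM in at least 4 libraries), as did 11298 of all genes. FPKM counts fragments relative to the length of the gene and to the depth of the library. Levels of different genes can be compared on it only as far as the gene lengths used hold.

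Liver RNA of mice was sequenced in 16 libraries, in 4 groups of 4. WT mice carried Zfp36l1, and LKO mice had it knocked out specifically in the liver, per the design text. Each genotype received either a control diet or a diet with ethanol. The promoter driving the deletion, strain, sex, age, length of feeding, diet composition and hour of collection were not in the labels used here. The labels do not say in words that each library came from its own mouse, and the p-values measure the spread between these libraries. Libraries are called by group and a number from 1 to 4 in the order of the records.

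Bile acids are made from cholesterol in hepatocytes. In the classical pathway CYP7A1 carries out the first, rate-limiting hydroxylation and CYP8B1 then directs the product towards cholic acid. In the acidic pathway CYP27A1 acts first and CYP7B1 second. HSD3B7 and AKR1D1 modify the sterol ring, and SLC27A5 and BAAT link the finished acid to coenzyme A and then to taurine or glycine. The receptor FXR, product of Nr1h4, senses bile acids and induces SHP, product of Nr0b2, which represses Cyp7a1 and Cyp8b1. ZFP36L1 binds AU-rich stretches in the 3′ untranslated region (3′UTR) of messenger RNAs and shortens their life, and Cyp7a1 has been reported as one of its targets.

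The AU-rich 7-mer TATTTAT, searched on the sense strand only in the longest annotated 3′UTR of each gene, occurred 3 times in the 2600 bases of Cyp7a1 and 1 time in the 476 bases of Nr1h4. It contains the shorter AU-rich motif ATTTA. The other 8 genes had 0 matches in 3′UTRs of 130 bases (Slc27a5) to 1649 bases (Akr1d1). Among 10517 kept genes with an annotated 3′UTR, 29.1% held the 7-mer. A long region holds it more often by its length: the share was 46.3% of the 2723 kept genes whose 3′UTR was within 1.5-fold of the length of Cyp7a1's, and 13.4% of the 1994 around the length of Nr1h4's. The windows below are shown because Cyp7a1 and Nr1h4 are the 2 genes with a match. They are printed 5′ to 3′ in the transcript's sense from GENCODE M21 on GRCm38, with the 7-mer in capitals. The first Cyp7a1 window lies at chr4:6266974-6267002 and the second at chr4:6266795-6266823, and the Nr1h4 window at chr10:89454604-89454632, all on the minus strand.
Cyp7a1, match starting at base 1221 of the 3′UTR: tactgaaaataTATTTATatataaattat
Cyp7a1, match starting at base 1400 of the 3′UTR: aatttttctcaTATTTATttaaaatattc
Nr1h4, match starting at base 89 of the 3′UTR: atctcaatgaaTATTTATgtggcaattat
The remaining Cyp7a1 match starts at base 1238, the last base of the first window. A match describes the letters and does not show that the protein binds there.

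Total reads, worked out from the steps of the FPKM values, were 19069903 to 24768569 in 15 libraries and 9890475 in WT ethanol library 2. That library stood apart: 22.53% of its reads were mitochondrial, against 3.64 to 6.97% in the 15 others, and its Spearman correlation with them across genes was 0.67 to 0.716, against 0.923 to 0.957 among the 15. It was kept, and results that rest on it are given with and without it. Libraries 1 and 2 of each group also lay apart from libraries 3 and 4 on the first principal component within groups. This component was worked out from the 15 others and held 40.0% of their variance within groups. WT ethanol library 2 was then placed on it. The record order thus follows a split that the groups share. The labels name no batch for it, so it is called a side here, and a fit with a side term blocks on it. The hepatocyte markers found (5 of 6 by symbol) were above 1 FPKM. Their summed level was 59080 to 73000 FPKM in WT control, 42420 to 71960 in WT ethanol, 55230 to 71750 in LKO control and 54670 to 70600 in LKO ethanol libraries. The summed markers of Kupffer cells and macrophages (6 of 6 above the filter) were 129 to 370 FPKM in WT and 122 to 437 in LKO on the control diet, and 226 to 514 and 82.8 to 456 on the ethanol diet, with the 514 in WT ethanol library 2. In that library the summed cholangiocyte markers were 75.0 FPKM, against 10.8 to 28.6 in the others, while the endothelial markers were 12.1 against 28.2 to 87.4 and the stellate cell markers 11.5 against 36.0 to 161. Spp1 alone made up 66.35 of the 75.0, so that sum mostly describes a single gene. Of 5 cholangiocyte and 4 lymphocyte markers, 2 and 1 passed the filter. Of 5 markers of pancreas or gut, Fabp2 alone did, and Cpa1 was listed at 0 in every library. Within these lists single markers went different ways with diet (named after their values were seen). Alb made up most of the hepatocyte sum, and its mean went from 52150 to 36480 FPKM in WT and from 49560 to 49660 in LKO. The mean of Cps1 went from 493 to 632 FPKM in WT, or 831 without library 2, and from 545 to 1000 in LKO. In WT ethanol library 2, Cps1 was at 36.55 FPKM and Apoa1 at 34500. Of the endothelial genes, the mean of Lyve1 went from 3.02 to 18.7 FPKM in WT and from 4.08 to 18.7 in LKO, and that of Clec4g from 33.3 to 12.6 and from 35.8 to 19.8. Of the macrophage genes, the mean of Marco went from 8.19 to 30.1 FPKM in WT and from 7.49 to 9.47 in LKO, and that of Adgre1 from 6.48 to 5.68 and from 7.84 to 4.16. Their part in the differences with ethanol was not tested. In bulk liver, fewer hepatocytes and less RNA per hepatocyte cannot be told apart.

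Zfp36l1 was checked first. On the control diet it measured 9.79, 9.30, 25.5 and 14.8 FPKM in WT libraries 1 to 4, and 1.03, 0.836, 1.42 and 1.4 in LKO. With ethanol it measured 9.87, 13.1, 20.99 and 23.3 in WT libraries. The LKO libraries on that diet measured 0.688, 0.572, 1.60 and 1.76 FPKM. The genotypes did not overlap, and no library went against its genotype label. The log2 fold change of FPKM + 1 between genotypes averaged over diets was -2.89 (SE 0.23, limma adjusted p = 4.53e-06).

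On the ethanol diet, WT livers held less Cyp7a1 and less Cyp8b1 transcript than on the control diet, and none of the 10 genes was called higher. Averaged over genotypes, ethanol lowered Cyp7a1, Cyp8b1 and Cyp7b1, and the fold changes of all 10 genes were below 0. The same comparison in LKO livers called none of them, with 3 at an unadjusted p under 0.05 (9.19% of all genes were), and the difference between the genotypes' responses was not called for any. A call means a limma p, adjusted by Benjamini-Hochberg over all 11298 genes, under 0.05.

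In WT, 2 of the 10 genes were called lower with ethanol, where 4.18% of all genes tested were called in either direction. An unadjusted p under 0.05 was reached by 8 of the 10, beside 19.7% of all genes, and by 5 of the 10 without WT ethanol library 2, beside 26.3%. The median log2 fold change of the 10 was -0.93, beside -0.02 for all genes tested, and -0.68 beside 0.17 without that library. In LKO, 0 of 10 were called, both by limma on log2(FPKM + 1) and by voom on the recovered reads, beside 0.425% of all genes, and their median was -0.45 beside 0.06. Averaged over genotypes, 3 of 10 were called lower, where 7.78% of all genes were called. The median was -0.69 beside 0.02 (-0.60 beside 0.11 without WT ethanol library 2). At an unadjusted p under 0.05 were 7 of 10, beside 21.6% of all genes. Without WT ethanol library 2, the calls were 4 of 10 in WT beside 9.48% of all genes, 0 of 10 in LKO beside 3.62%, and 6 of 10 averaged over genotypes beside 20.5%, all of them lower. The genes added were Akr1d1 and Slc27a5 in WT, and Cyp27a1, Slc27a5 and Nr0b2 averaged over genotypes. The WT and LKO diet comparisons take their group means from separate libraries, and each shares a group with each genotype comparison. The limma fits, however, share an estimate of the spread over all 4 groups. Leaving out a library of one genotype can thus change calls in the other while its fold changes stay the same. The step from 0.425% to 3.62% of all genes called in LKO is such a change.

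**Figure D1:**
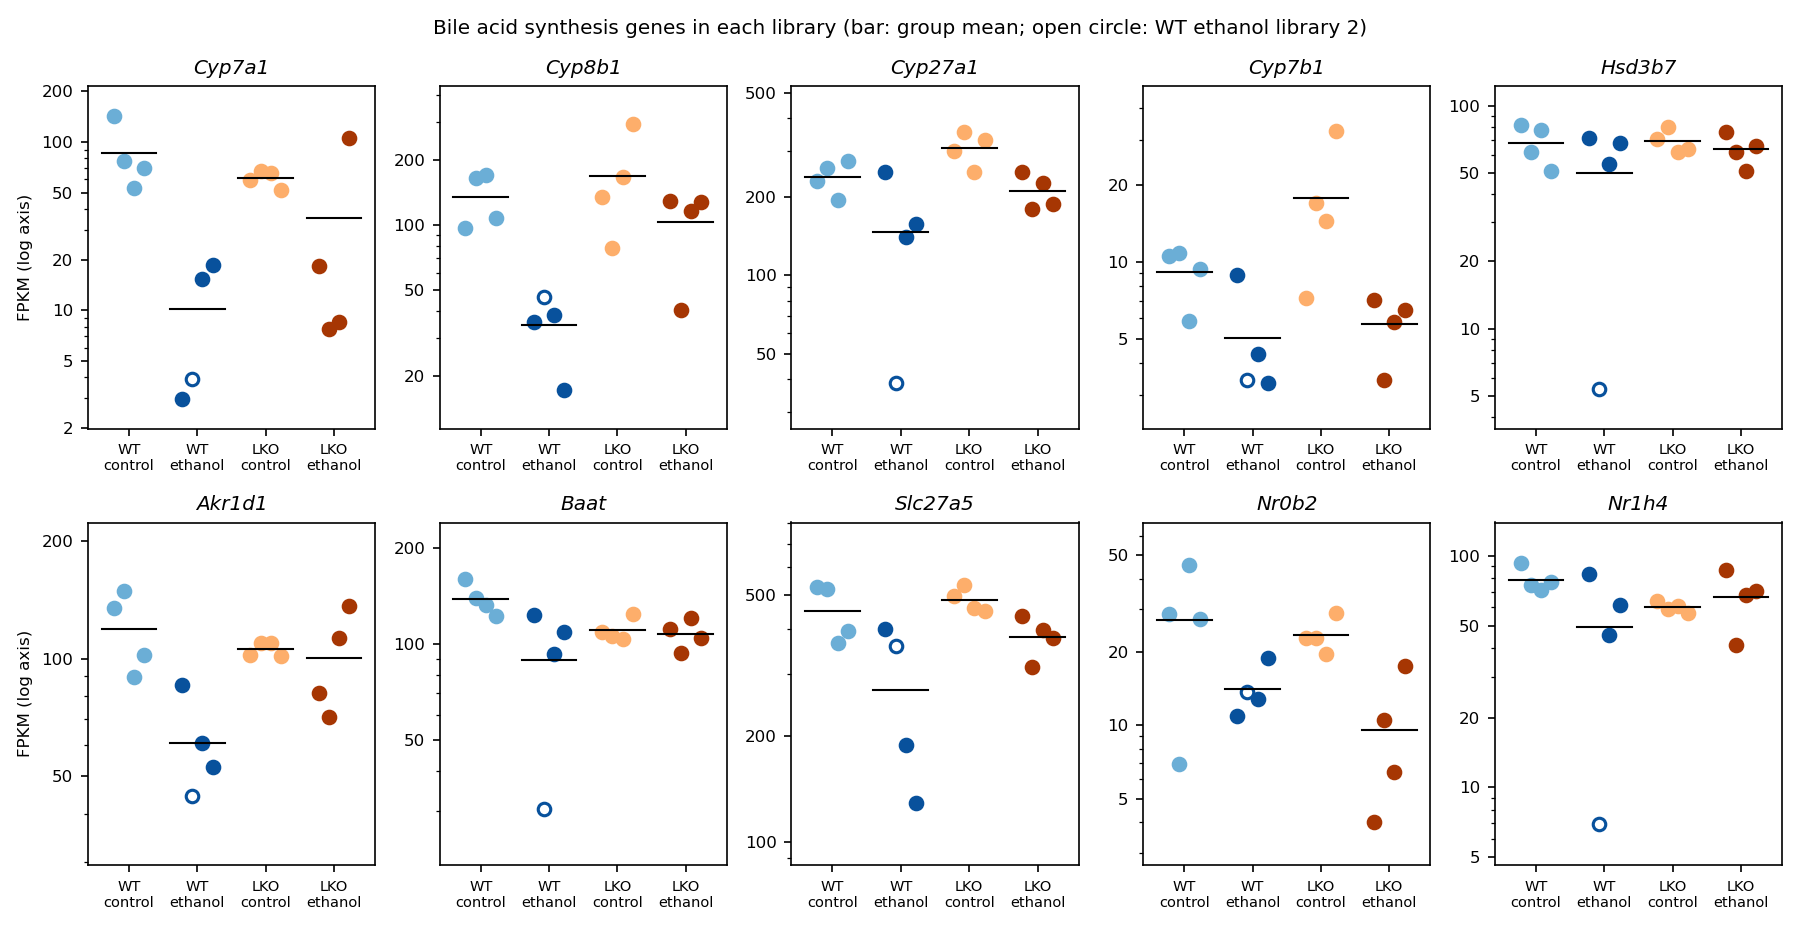
FPKM on log axes (each panel with its own range) of the 10 genes in the 4 libraries of each group, with bars at group means and WT ethanol library 2 as an open circle. Cyp7a1 and Cyp8b1 in WT lie lower with ethanol in all 4 libraries than in any control library, and 1 LKO ethanol library has Cyp7a1 at 106.5 FPKM.

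Cyp7a1 (ENSMUSG00000028240, protein-coding, chromosome 4, 6265612 to 6275633, minus strand), the gate of the classical pathway, measured 144, 76.9, 53.2 and 70.1 FPKM in WT control libraries 1 to 4 and 2.98, 3.90, 15.3 and 18.6 in WT ethanol libraries. The highest ethanol value lay below the lowest control value. In LKO it measured 59.8, 67.7, 65.9 and 51.9 FPKM on the control diet, and 18.3, 7.70, 8.51 and 106.5 with ethanol. Of the LKO ethanol libraries, 3 lay below every LKO control library, and library 4 lay above them all. Group means were 86.0 ± 39.7 in WT control, 10.2 ± 7.91 in WT ethanol, 61.4 ± 7.13 in LKO control and 35.3 ± 47.7 FPKM in LKO ethanol (SD, n = 4 each). The values rest on 161 to 11429 reads per library.

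In WT, the log2 fold change of Cyp7a1 with ethanol was -3.19 (SE 0.66, 95% interval -4.59 to -1.80, limma adjusted p = 0.0139). The exact two-sided permutation test over 70 arrangements gave p = 0.0286, the smallest it can give, and 0.1143 after adjustment over the 4 comparisons of Cyp7a1. Without WT control library 1, which held the highest value, the limma fit gave -2.91 and an adjusted p of 0.0534. Without WT ethanol library 2 it gave -2.91 with an adjusted p of 0.0200. The difference was larger on one side of the split: -4.59 over libraries 1 and 2 and -1.80 over libraries 3 and 4, and -4.74 on the former without WT ethanol library 2.

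In LKO, the fold change of Cyp7a1 with ethanol was -1.61 (SE 0.66, interval -3.00 to -0.21, limma adjusted p = 0.445, exact permutation p = 0.1429, adjusted 0.2857). This value depended on LKO ethanol library 4. Without it, the fold change was -2.41 (SE 0.51, limma adjusted p = 0.0393, where 0.779% of all genes were called), and the exact permutation over 35 arrangements gave its smallest p of 0.0286, adjusted 0.0571. Within sides the LKO differences were -2.32 and -0.90.

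Between genotypes, Cyp7a1 in LKO relative to WT was -0.39 on the control diet (SE 0.66, interval -1.78 to 1.01, limma adjusted p = 0.9997, exact permutation p = 0.2286). It was -0.11 without WT control library 1, and the exact permutation p ran from 0.0286 (without WT control library 3, where the fold change was -0.58) to 0.5429 with 1 library left out. The interval spans values on both sides of 0, so a rise of up to 1.01 or a fall of up to 1.78 on the log2 scale is within the error of these 8 libraries. On the ethanol diet it was 1.198 (SE 0.66, interval -0.20 to 2.59, limma adjusted p = 0.491, exact permutation p = 0.2857), and 0.40 without LKO ethanol library 4. The interaction, the LKO response to ethanol less the WT response, was 1.59 (SE 0.94, interval -0.39 to 3.56, limma adjusted p = 0.927), and 0.79 without LKO ethanol library 4. Over both genotypes, Cyp7a1 was lower with ethanol by -2.40 on the log2 scale (SE 0.47, limma adjusted p = 0.00459), and this stayed called in all 25 alternative fits, from -2.80 to -1.97. Averaged over diets, LKO relative to WT was 0.40 (SE 0.47, interval -0.58 to 1.39, limma adjusted p = 0.821), 0.26 without WT ethanol library 2 and 0.0049 without LKO ethanol library 4.

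Cyp8b1 (ENSMUSG00000050445, protein-coding, chromosome 9, 121914356 to 121916305, minus strand), which steers synthesis towards cholic acid, measured 97.1, 165, 171 and 108 FPKM in WT control libraries and 35.3, 46.3, 38.2 and 17.1 in WT ethanol libraries. These groups did not overlap either. In LKO it measured 134, 77.9, 167 and 293 FPKM on the control diet and 129, 40.2, 116 and 127 with ethanol. The LKO diet groups overlapped, and library 2 of the LKO ethanol group, at 40.2, lay within the range of WT ethanol.

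The log2 fold change of Cyp8b1 with ethanol in WT was -1.99 (SE 0.44, interval -2.92 to -1.06, limma adjusted p = 0.0193), and -2.16 with an adjusted p of 0.0104 without WT ethanol library 2. The call was lost without WT control library 2 (adjusted p = 0.0636), WT control library 3 (0.0504) or WT ethanol library 4 (0.0591), with fold changes of -1.88, -1.87 and -1.70. Within sides the WT differences were -1.62 and -2.36, and -1.81 on the former without WT ethanol library 2. Averaged over genotypes it was -1.34 (SE 0.31, adjusted p = 0.0150), called in all 25 alternative fits.

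Of the 10 genes, Cyp8b1 had the smallest unadjusted p between genotypes averaged over diets, 0.0141, but it did not pass the adjustment (0.85 higher in LKO on the log2 scale, SE 0.31, limma adjusted p = 0.356). It averages 2 values, 0.20 for the control diet (SE 0.44, limma adjusted p = 0.9997) and 1.51 for ethanol (SE 0.44, limma adjusted p = 0.228). The averaged value was called at an adjusted p of 0.0477 in the fit with a side term and without WT ethanol library 2, with a fold change of 0.98, where 11.1% of all genes were called, and at 0.0325 with array weights, where 34.1% were. Its interaction was 1.31 (SE 0.62, interval -0.01 to 2.63, adjusted p = 0.927).

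In the acidic pathway, Cyp27a1 (ENSMUSG00000026170, protein-coding, chromosome 1, 74713574 to 74737892, plus strand) measured 195 to 276 FPKM in WT control, 248.7 to 355 in LKO control and 180 to 248.7 in LKO ethanol libraries. In WT ethanol libraries 1 to 4 it measured 248.6, 38.8, 140 and 158. The value of 38.8 was that of the library that stood apart. LKO ethanol libraries lay below LKO control libraries, though the nearest pair, both 248.7, differed only past the digits given. The fold change with ethanol averaged over genotypes was -0.76 (SE 0.29, limma adjusted p = 0.120), and -0.49 (SE 0.15, adjusted p = 0.0314) without WT ethanol library 2. Leaving out WT ethanol library 1 instead gave -0.93 and an adjusted p of 0.0355.

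Cyp7b1 (ENSMUSG00000039519, protein-coding, chromosome 3, 18071950 to 18243338, minus strand), the second enzyme of that pathway, had the lowest mean of the 10 genes in each group, with 10.5, 10.8, 5.86 and 9.35 FPKM in WT control and 8.87, 3.45, 4.35 and 3.34 in WT ethanol libraries. LKO control libraries spread widely, at 7.18, 16.9, 14.4 and 32.4 FPKM, and LKO ethanol libraries measured 7.09, 3.44, 5.82 and 6.49. All LKO ethanol values lay below all LKO control values. Over both genotypes, Cyp7b1 was at -1.08 with ethanol on the log2 scale (SE 0.26, limma adjusted p = 0.0192). With no filter on low values the adjusted p was 0.0523. In LKO alone Cyp7b1 was called with a side term and without WT ethanol library 2 (-1.34, limma adjusted p = 0.0336), where 10.7% of all genes were called. It was also called there with array weights (-1.16, 0.0404), where 7.69% were. Within sides the differences with ethanol were -0.81 on both in WT, -0.24 on the first of them without WT ethanol library 2, and -1.01 and -1.67 in LKO. The lowest library rested on 74 reads.

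The ring-modifying enzymes differed in their values. Akr1d1 (ENSMUSG00000038641, protein-coding, chromosome 6, 37530173 to 37568815, plus strand), the steroid reductase, measured 135, 149, 89.9 and 102 FPKM in WT control and 85.4, 44.3, 60.9 and 52.6 in WT ethanol libraries, without overlap. In LKO it measured 101 to 110 FPKM on the control diet and 71.0 to 137 with ethanol, so the LKO diet groups overlapped. With ethanol, the change averaged over genotypes was -0.54 (SE 0.20, limma adjusted p = 0.101) and its interaction 0.85 (SE 0.39, interval 0.03 to 1.68, adjusted p = 0.927). Without WT ethanol library 2 it was called in WT, at -0.84 (SE 0.24, adjusted p = 0.0433), as it was without WT ethanol library 1 (0.0209) or LKO ethanol library 2 (0.0493). With a side term and all 16 libraries it was called in WT at -0.97 (adjusted p = 0.0391), where 6.87% of all genes were called.

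Hsd3b7 (ENSMUSG00000042289, protein-coding, chromosome 7, 127800604 to 127803802, plus strand), the dehydrogenase that acts after the first hydroxylation, measured 51.2 to 81.8 FPKM in WT control, 62.0 to 80.5 in LKO control and 50.9 to 76.4 in LKO ethanol libraries. In WT ethanol libraries it measured 71.4, 5.34, 54.9 and 68.3, with the 5.34 in library 2. The other 3 lay within the range of WT control. Its change with ethanol over both genotypes was -0.51 (SE 0.39, limma adjusted p = 0.497), and -0.09 (SE 0.14, interval -0.38 to 0.20, adjusted p = 0.680) without that library.

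The conjugating enzymes were the ligase Slc27a5 and the transferase Baat. Slc27a5 (ENSMUSG00000030382, protein-coding, chromosome 7, 12988346 to 12998192, minus strand) had the highest mean of the 10 genes in each group, at 526, 520, 366 and 396 FPKM in WT control and 401, 358, 188 and 129 in WT ethanol libraries. WT ethanol libraries 3 and 4 lay below every other library of the 16, and library 2 lay near library 1. In LKO it measured 452 to 535 FPKM on the control diet and 312 to 437 with ethanol, without overlap. Averaged over genotypes its fold change with ethanol was -0.61 (SE 0.23, limma adjusted p = 0.108), and -0.71 (SE 0.20, adjusted p = 0.0204) without WT ethanol library 2. In WT without that library it was -1.06 (SE 0.29, adjusted p = 0.0330). With a side term and all 16 libraries the averaged change was called at -0.61 (adjusted p = 0.0408), where 12.3% of all genes were called. Within sides, the WT difference was -0.46 over libraries 1 and 2 and -1.28 over libraries 3 and 4.

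Baat (ENSMUSG00000039653, protein-coding, chromosome 4, 49489422 to 49506557, minus strand) measured 122 to 160 FPKM in WT control, 104 to 124 in LKO control and 93.4 to 120 in LKO ethanol libraries. In WT ethanol libraries it measured 123, 30.4, 93.1 and 109, again with the lowest in library 2. Averaged over genotypes its fold change with ethanol was -0.42 (SE 0.24, limma adjusted p = 0.338), and -0.20 (SE 0.11, adjusted p = 0.227) without that library.

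Nr1h4 (ENSMUSG00000047638, protein-coding, chromosome 10, 89454234 to 89533585, minus strand), the bile acid receptor FXR, measured 71.2 to 92.9 FPKM in WT control and 56.5 to 63.9 in LKO control libraries, a difference without overlap but not called. WT ethanol libraries measured 83.5, 6.93, 45.7 and 61.3, with the 6.93 in library 2, and LKO ethanol libraries 87.3, 41.0, 68.0 and 70.3. Averaged over genotypes its fold change with ethanol was -0.50 (SE 0.36, limma adjusted p = 0.479), and -0.12 (SE 0.16, interval -0.47 to 0.22, adjusted p = 0.640) without that library.

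Nr0b2 (ENSMUSG00000037583, protein-coding, chromosome 4, 133553376 to 133556536, plus strand), the repressor SHP, measured 28.8, 6.96, 45.4 and 27.5 FPKM in WT control and 10.9, 13.7, 12.8 and 18.9 in WT ethanol libraries. WT control library 2 lay below all WT ethanol libraries and the other 3 above them. In LKO it measured 22.8, 22.9, 19.6 and 29.1 FPKM on the control diet and 4.0, 10.5, 6.45 and 17.5 with ethanol, without overlap. Averaged over genotypes its fold change with ethanol was -1.02 (SE 0.32, limma adjusted p = 0.0610). It was called without WT control library 2 (-1.28, adjusted p = 0.00755), WT ethanol library 2 (-1.02, 0.0424) or LKO ethanol library 4 (-1.18, 0.0281). It was also called with a side term and all 16 libraries (-1.02, 0.0361). In each of these fits Nr0b2 was lower with ethanol, as were Cyp7a1 and Cyp8b1. In LKO alone Nr0b2 was called with a side term and without WT ethanol library 2 (-1.37, limma adjusted p = 0.0479), where 10.7% of all genes were called.

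**Figure D2:**
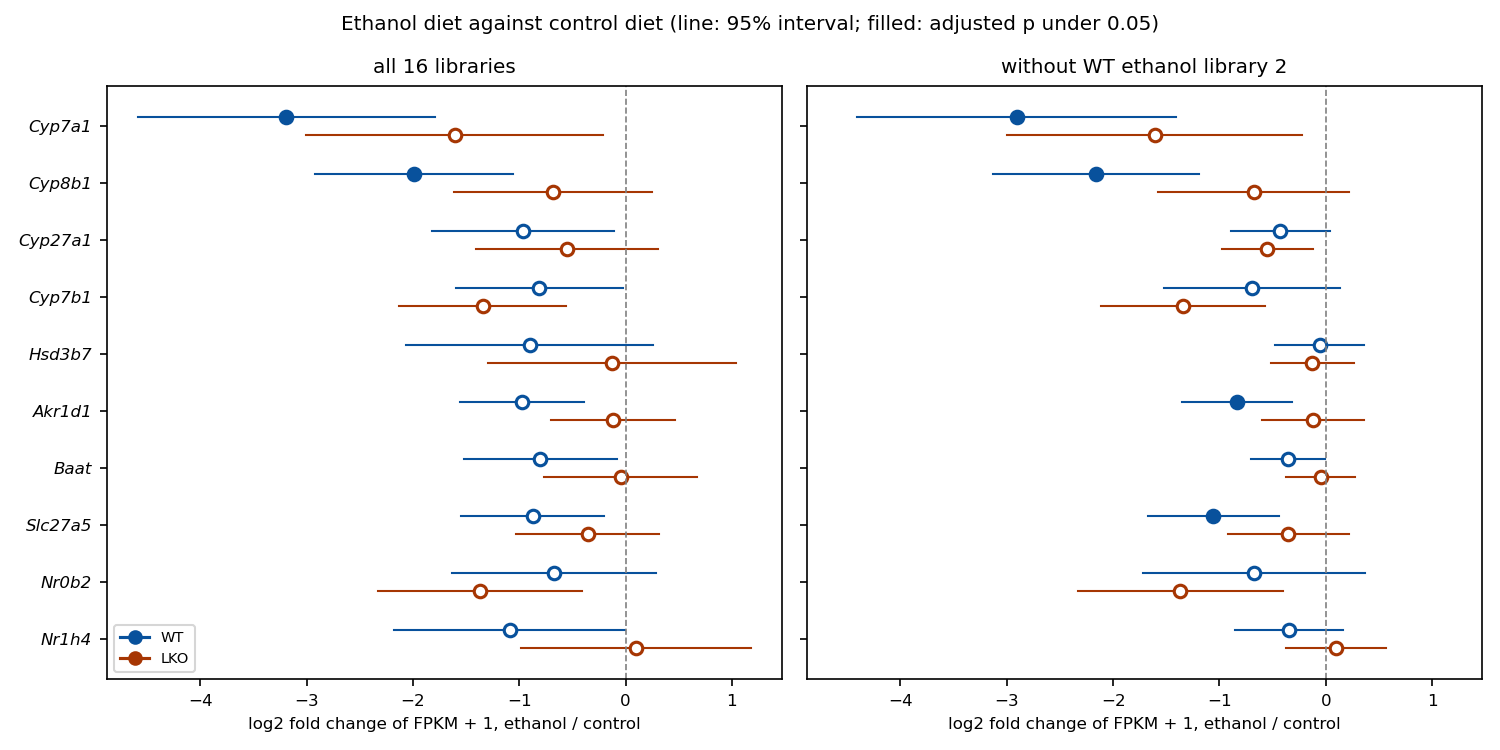
Log2 fold change of FPKM + 1 (x axis), ethanol against control diet, for the 10 genes in WT and LKO, with all 16 libraries (left) and without WT ethanol library 2 (right). Lines are 95% intervals of the limma fit and filled points passed the adjusted threshold: 2 genes in WT at left, 4 at right, and 0 in LKO in both.

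Counted by overlap alone, 3 of the 10 genes in WT (Cyp7a1, Cyp8b1 and Akr1d1) had all 4 ethanol libraries below all 4 control libraries, where 10.1% of all kept genes did not overlap in either direction. In LKO, 4 of the 10 did (Cyp27a1, Cyp7b1, Slc27a5 and Nr0b2), where 12.3% of all genes did not overlap. None of the 10 had all ethanol libraries above the controls in either genotype. The sets named in WT and LKO share no gene, but the test of that difference is the interaction, and it called none of the 10.

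Between genotypes on the control diet, limma and voom each called 0 of the 10 genes, where 0.00885% of all genes were called, and 0 had an unadjusted p under 0.05, beside 3.45% of all genes. Nr1h4 was the only one of the 10 without overlap, beside 9.25% of all genes, and lay lower in LKO. With ethanol, 0 of 10 were called by limma or voom, where 0.0797% of all genes were called. At an unadjusted p under 0.05 were 2 of 10, near the 11.9% of all genes. None of the 10 was without overlap there, beside 2.69% of all genes. Averaged over diets, 0 of 10 were called by limma or voom, where 0.142% of all genes were called, and 1 had an unadjusted p under 0.05, as did 10.4% of all genes. For the 8 genes other than Cyp7a1 and Cyp8b1 the averaged genotype difference ran from -0.30 (Nr0b2) to 0.57 (Cyp27a1) on the log2 scale, with adjusted p-values from 0.509 (Cyp27a1) to 0.959 (Baat).

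In that comparison, Cyp7b1 was at 0.48 (SE 0.26), Hsd3b7 at 0.43 (SE 0.39), Slc27a5 at 0.38 (SE 0.23), Akr1d1 at 0.29 (SE 0.20), Nr1h4 at 0.21 (SE 0.36) and Baat at 0.06 (SE 0.24). With 1 library left out, Cyp7b1 ran from 0.31 to 0.65, Slc27a5 from 0.23 to 0.50 and Nr0b2 from -0.57 to -0.14. Without WT ethanol library 2, the values of Baat and Nr1h4 turned to -0.16 each, that of Hsd3b7 was 0.0048 and that of Cyp27a1 0.30. The sign of Baat also turned under quantile normalization, to -0.0036.

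**Figure D3:**
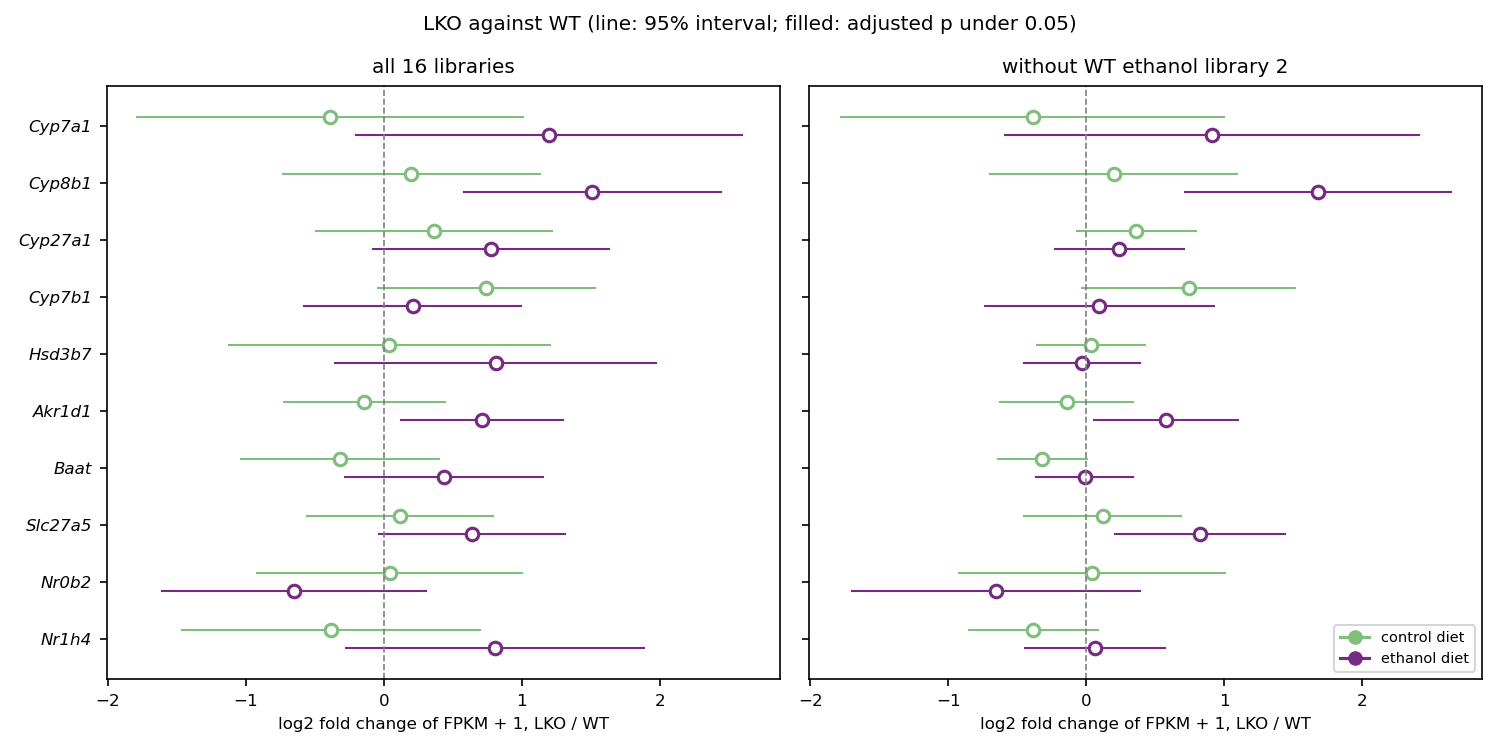
Log2 fold change of FPKM + 1 (x axis), LKO against WT, for the 10 genes on each diet, with all 16 libraries (left) and without WT ethanol library 2 (right). Lines are 95% intervals of the limma fit, and every point is open because 0 of the 10 genes passed the adjusted threshold on either diet.

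The interaction called 0 of the 10 genes by limma and by voom, and 1 of them, Akr1d1, had an unadjusted p under 0.05. Across all 11298 genes, 0.0% were called by either, with 362 (3.2%) at an unadjusted p under 0.05 by limma and 294 by voom. The estimates of the remaining genes were 0.42 for Cyp27a1, -0.53 for Cyp7b1, 0.77 for Hsd3b7, 0.76 for Baat, 0.52 for Slc27a5, -0.69 for Nr0b2 and 1.19 for Nr1h4, each with an adjusted p of 0.927. With 1 library left out, the estimates ran from -0.87 to -0.19 for Cyp7b1, 0.22 to 0.76 for Slc27a5 and -1.02 to -0.17 for Nr0b2. Without WT ethanol library 2, those of Cyp27a1 and Hsd3b7 turned to -0.12 and -0.07, and those of Nr1h4 and Baat were 0.44 and 0.31. A fit with array weights, which gave that library a weight of 0.042 and WT ethanol library 3 a weight of 5, called the interaction of Akr1d1 (0.96, adjusted p = 0.0459) and Slc27a5 (0.97, adjusted p = 0.0493), where 4.48% of all genes were called.

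Of 14 other genes of bile acid synthesis, 12 were tested, and Ch25h and Star did not pass the filter. Averaged over genotypes, ethanol lowered 2 of the 12 and raised 0, where 7.78% of all genes were called, with a median log2 fold change of -0.41 beside 0.02 for all genes. Without WT ethanol library 2 the counts were 4 lower and 2 higher, where 20.5% of all genes were called, with a median of -0.16 beside 0.11. Abcd3, a peroxisomal transporter that admits bile acid intermediates, measured 141 to 194 FPKM in WT control, 26.7 to 129 in WT ethanol, 147 to 173 in LKO control and 78.5 to 138 in LKO ethanol libraries, so neither genotype's diet groups overlapped. Its fold change was -0.89 (SE 0.26, limma adjusted p = 0.0435), a call lost in 11 of the 16 fits that left out 1 library (adjusted p up to 0.0994), and -0.66 (SE 0.15, adjusted p = 0.00632) without that library. Cyp46a1, a cholesterol hydroxylase best known from brain, was low throughout at 0.389 to 7.53 FPKM, with a fold change of -0.98 (SE 0.24, adjusted p = 0.0201), and an adjusted p of 0.0503 without WT control library 4. For LKO against WT averaged over diets it was called without LKO ethanol library 2 (1.06, limma adjusted p = 0.0440), where 42 of 11298 genes were called. Abcd3 was called with ethanol in WT without WT ethanol library 3 (-1.45, limma adjusted p = 0.0353), where 408 were called.

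The genes added without WT ethanol library 2 moved both ways. Acox2, the peroxisomal oxidase of the bile acid side chain, measured 38.0 to 62.7 FPKM in WT control, 42.1 to 51.7 in LKO control and 92.0 to 114 in LKO ethanol libraries. WT ethanol libraries measured 98.0, 8.56, 106 and 151, with the 8.56 in library 2. Its fold change was 0.67 (SE 0.41, limma adjusted p = 0.386) with all 16 libraries. Without library 2 the fold change was 1.12 (SE 0.14, limma adjusted p = 0.000148), with all 7 remaining ethanol libraries above all 8 controls. Cyp39a1, an oxysterol hydroxylase, was at 0.94 (SE 0.19, adjusted p = 0.00355), the ligase Slc27a2 at -0.64 (SE 0.15, adjusted p = 0.00895), and Fdx1, the electron carrier of mitochondrial hydroxylases, at -0.65 (SE 0.13, adjusted p = 0.00360). With all 16 libraries these 3 were at 0.63, -1.13 and -0.57 and were not called (adjusted p = 0.287, 0.139 and 0.0597). Acox2 at 1.03 and Fdx1 at -0.68 were also called in LKO without WT ethanol library 2 (adjusted p = 0.00828 and 0.0496), and Cyp39a1 at 0.99 and Acox2 at 1.21 in WT in the same fit (adjusted p = 0.0388 and 0.00308).

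Of 16 other regulators, 15 were tested. Fgf15, the intestinal hormone that represses Cyp7a1, was listed at 0 in every library. With ethanol averaged over genotypes, 1 of the 15 was lower and 0 were higher, near the 7.78% of all genes called, with a median of -0.35 beside 0.02 for all genes. In the fit without WT ethanol library 2, 2 were lower and 0 higher, beside 20.5% of all genes, with a median of -0.17 beside 0.11. The gene called was Dbp, a clock-driven transcription factor known to activate Cyp7a1. It measured 24.8, 23.4, 3.51 and 57.7 FPKM in WT control and 1.61, 0.791, 15.9 and 28.1 in WT ethanol libraries, which overlapped. In LKO it measured 33.01, 56.8, 47.9 and 58.6 FPKM on the control diet and 2.61, 2.41, 3.01 and 10.99 with ethanol, without overlap. Its fold change was -2.43 (SE 0.58, limma adjusted p = 0.0161), and -2.10 (adjusted p = 0.0135) without WT ethanol library 2, where it was also called in LKO (-3.31, adjusted p = 0.0241). The hour of collection is not in the labels, and its part in these values was not tested.

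Nr1i2, the xenobiotic receptor PXR, was the regulator added without WT ethanol library 2 (-0.43, SE 0.14, limma adjusted p = 0.0437), and was at -0.48 with all 16 (adjusted p = 0.102). Of 4 transporters induced by FXR, 3 passed the filter and 0 were called by limma averaged over genotypes, with 1 at an unadjusted p under 0.05. That one was Slc51b, a subunit of the basolateral bile acid exporter, at 0.63 (SE 0.26, adjusted p = 0.164), with 24 reads or fewer in every library. The canalicular export pump Abcb11 was at -0.26 (SE 0.22, adjusted p = 0.554) and the phospholipid floppase Abcb4 at -0.09 (SE 0.37, adjusted p = 0.931). Leaving out WT ethanol library 2, Slc51b was at 0.38, Abcb11 at -0.07 and Abcb4 at 0.25, and none was called (adjusted p = 0.113, 0.725 and 0.520). Slc51a, the partner of Slc51b, did not pass the filter.

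**Figure D4:**
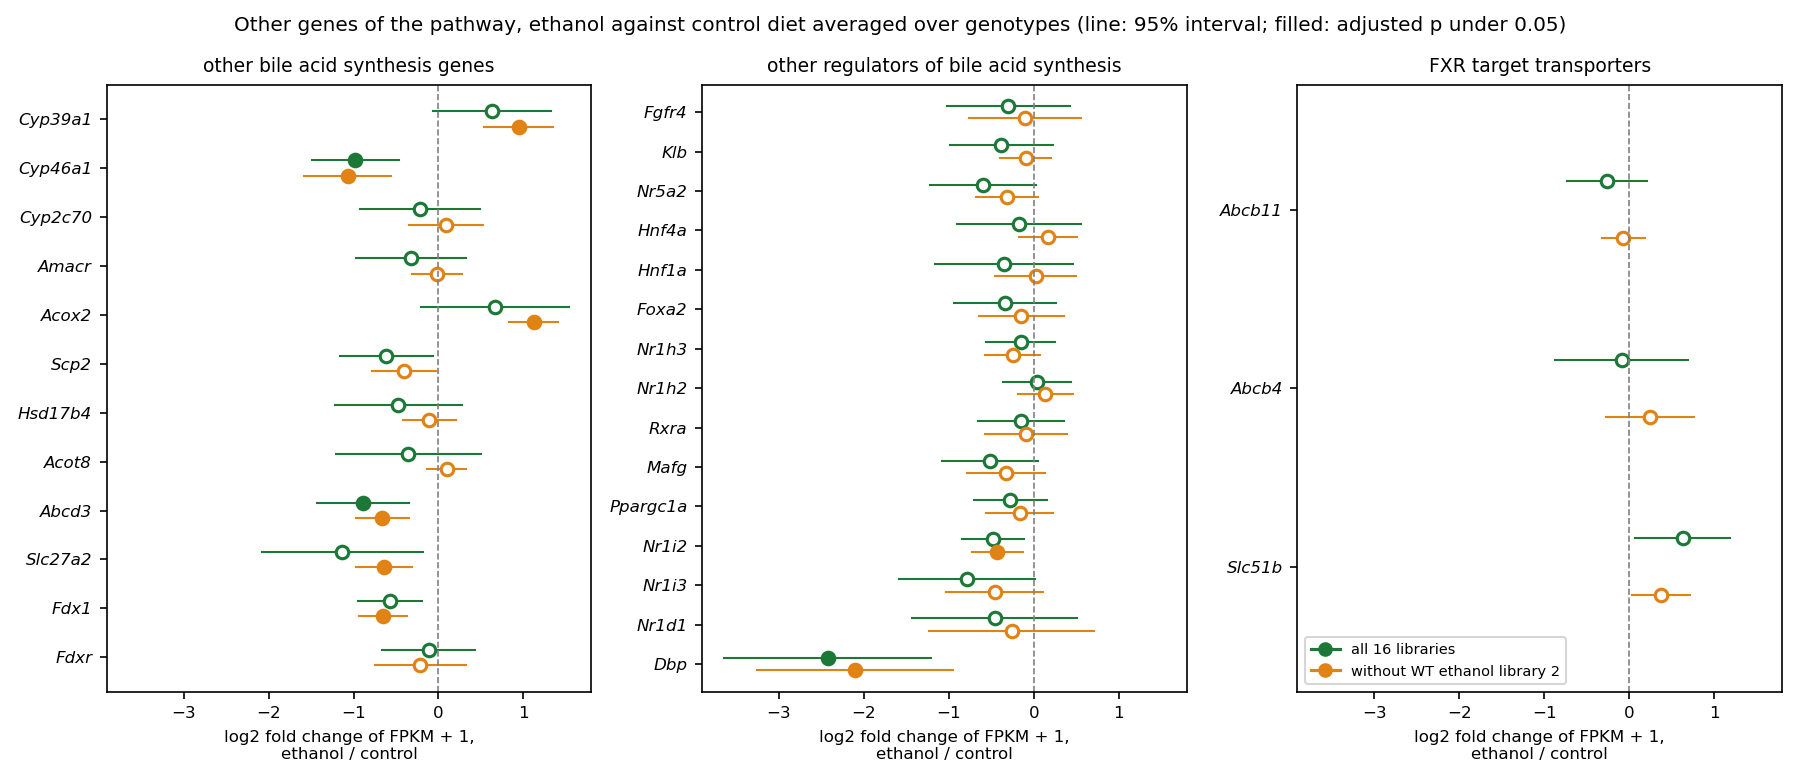
Log2 fold change of FPKM + 1 (x axis), ethanol against control diet averaged over genotypes, for the 12 other synthesis genes, 15 other regulators and 3 transporters tested, with all 16 libraries and without WT ethanol library 2. Lines are 95% intervals and filled points passed the adjusted threshold. Cyp46a1, Abcd3 and Dbp are filled in both fits.

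The Spearman correlation of Cyp7a1 with the 9 other genes over the 16 libraries ran from 0.338 (Hsd3b7) to 0.762 (Akr1d1), and with Cyp8b1 it was 0.438, or 0.354 without WT ethanol library 2. Among 10364 named protein-coding genes, those most like Cyp7a1 in FPKM over the libraries were Fam214a (rho 0.938) and Prok1 (0.905), then Scrn3, Slc16a12 and Gzf1 at 0.9. Those most like Cyp8b1 were Elovl5 (0.888), Uck1 (0.847) and Slc17a8 (0.812). These correlations run over libraries that share groups and sides, and they are given as a description. In level, the order in WT control was Slc27a5 (452 ± 82.9 FPKM), Cyp27a1 (239 ± 35.0), Baat (139 ± 16.2), Cyp8b1 (135 ± 37.9), Akr1d1 (119 ± 27.6), Cyp7a1 (86.0 ± 39.7), Nr1h4 (79.0 ± 9.57), Hsd3b7 (68.3 ± 14.3), Nr0b2 (27.2 ± 15.8) and Cyp7b1 (9.13 ± 2.27), with SD and n = 4. The gaps between Slc27a5 and Cyp27a1, Cyp27a1 and Baat, Hsd3b7 and Nr0b2, and Nr0b2 and Cyp7b1 were larger than the SD of either neighbour. From Baat to Hsd3b7, each gene differed from the next by less than the larger of their SDs. This order also rests on the gene lengths behind the FPKM values, whose annotation is not given. Of the lengths worked out from the FPKM steps, 22.1% equalled the summed exon length in GENCODE M21. For Hsd3b7 the length was 5188 bases, more than the chromosome span given for it above.

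In the proximal promoters, RefSeq's table on GRCm38.p6 held an entry for 6 of the 10 genes, with none used for Cyp7a1, Cyp7b1, Baat and Slc27a5. On both strands of the 250 bases upstream, none of the 6 held the core motif of LRH-1 (the product of Nr5a2), CAAGGTCA, which 1.33% of 32851 such windows held. None held the inverted repeat of AGGTCA with 1 base between, the classical FXR element, held by 0.00609%. Only exact letters were counted and variants of either motif were not sought. The exact repeat occurred in only 2 of the 32851 windows. The Nr1h4 window, chr10:89506659-89506908, lies inside the span given above for that gene. These counts therefore do not show that the promoters lack such elements.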

How the data were processed

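The authors deposited 1 table in FPKM (fragments scaled by gene length and library depth) for 35275 mouse genes in 16 liver libraries. Per the submitters' processing notes, fastp, STAR 2.6.1, HTSeq, DESeq2 and the build mm10 were used. Their roles, the annotation and the strandedness are not given in the sources used here, so reads of overlapping or near-identical genes could be shared. Symbols and positions came from GENCODE M21 on GRCm38, which named 34490 of the gene IDs.

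The low FPKM values step by 1 read, and from these steps whole reads were recovered for 100.0% of 20520 genes (those detected in 4 or more libraries, tolerance 0.05 read). Up to 0.0643% of a library stayed unexplained. The recovered reads gave the totals, 9890475 to 24768569, and served a voom fit.

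Genes with at least 1 FPKM in at least 4 libraries (11298) were fitted as log2(FPKM + 1) with limma 3.58.1 in R 4.3.3, as 4 group means with eBayes trend. A fold change on this scale understates the change of low genes. Contrasts were the diet in each genotype, the genotype on each diet, their averages and the interaction, two-sided, with Benjamini-Hochberg adjustment over all genes. The averaged comparisons are means of the 2 contrasts concerned. An exact permutation test of group means was added for Cyp7a1. The procedure was tested on simulated data. The columns carried no shared replicate numbers.

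The text gives every gene of the set by group, the averaged and interaction values of each, all contrasts of Cyp7a1, other contrasts where called, and of 3 further lists (14 synthesis genes, 16 regulators, 4 transporters) the genes called or the 3 of smallest p. Marker lists covered hepatocytes, Kupffer cells and macrophages, endothelium, stellate cells, cholangiocytes, lymphocytes, and pancreas or gut. Summed lymphocyte markers were 0.25 to 2.72 FPKM, and those of pancreas or gut 30.4 to 158. The set and the lists were chosen with earlier results of these data known. The 7-mer was counted in the longest 3′UTR of each gene. Alternatives were another pseudocount (0.1), no filter, quantile normalization, equal sums, array weights, voom, a side term, and leaving out each library.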

Additional observations from a re-analysis of the deposited data

Results flagged for a closer look

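Among 44 groups of 4 libraries (the 10 genes and Zfp36l1 in 4 groups), 2 held a library whose gap to the nearest other, divided by the group's range, was above Dixon's 95% critical value, which chance exceeds in about 1 of 20 groups. Cyp7a1 in LKO ethanol library 4 was at 106.5 FPKM, against 7.70 to 18.35 in the other 3 (gap over range 0.892). Cyp8b1 in LKO ethanol library 2 was at 40.21 FPKM, against 116.1 to 128.9 in the other 3 (0.855).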

How the results depend on the processing

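No paired analysis was possible because the labels give no replicate numbers that groups share, and each title has its own number, whose meaning is not stated. The side term blocks on a split found in the data. The planned edgeR and DESeq2 tests were not run, because the table holds FPKM, and voom on the recovered reads was added after seeing the data, as was quantile normalization without WT ethanol library 2. Of the 10 genes, those called with ethanol in WT were 2, and 1 with no filter, 8 with array weights (38.4% of all genes called), 4 with the side term and without WT ethanol library 2 (19.7%), 4 with quantile normalization and without that library (9.72%), and 1 to 5 with 1 library left out. In LKO they were 0, and 1 with array weights (7.69%), 2 with the side term and without that library (10.7%), and 0 to 1 with 1 library left out. Averaged over genotypes they were 3, and 8 with array weights (36.7%), 5 with the side term (12.3%), 7 with the side term and without that library (32.6%), 6 with quantile normalization and without it (20.0%), and 3 to 6 with 1 library left out. The other comparisons called 0 of the 10, and array weights called 4 for LKO against WT with ethanol (30.7%), 2 for the interaction (4.48%) and 3 for LKO against WT averaged over diets (34.1%), where the side term without WT ethanol library 2 called 1 (11.1%). Pseudocount 0.1, equal sums and voom kept every count of the 10 genes within 1.5 times its value.

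Of the 70 differences (10 genes in 7 comparisons), 13 turned sign in at least 1 alternative, and 0 of these were called. Of the 13, 8 were in single comparisons: 3 with ethanol in LKO (Akr1d1, Baat and Nr1h4), 3 for LKO against WT on the control diet (Cyp8b1, Hsd3b7 and Nr0b2) and 2 with ethanol (Hsd3b7 and Baat). The other 5 follow. The interaction of Cyp27a1 was -0.16 with the side term and without WT ethanol library 2, -0.13 with quantile normalization and without it, and -0.12 to 0.76 with 1 library left out. The interaction of Hsd3b7 was -0.10 in the first of these and -0.067 to 1.10 with 1 library left out. Averaged over diets, LKO against WT was -0.014 for Hsd3b7, -0.17 for Baat and -0.17 for Nr1h4 with the side term and without that library. With quantile normalization and without it, Baat was at -0.16 and Nr1h4 at -0.091. Baat was at -0.0036 with quantile normalization alone and -0.086 with array weights. With 1 library left out, the ranges were -0.16 to 0.17 for Baat and -0.16 to 0.41 for Nr1h4. The cause was not tested for any of the 13. Most of the fits in which the last 5 turned left out or down-weighted WT ethanol library 2. The groups compared with ethanol in LKO, and those compared on the control diet, hold no WT ethanol library.

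Over all genes, the number called ranged from 146 to 4334 for ethanol in WT, 6 to 1206 in LKO, 519 to 4147 averaged over genotypes, 1 to 260 for LKO against WT on the control diet, 1 to 3465 with ethanol, 5 to 3848 averaged over diets, and 0 to 506 for the interaction, with the highest from array weights except in LKO, where it came with the side term and without WT ethanol library 2. With no filter, Cyp8b1 in WT, Cyp46a1, Abcd3 and Dbp also lost their calls (adjusted p = 0.0503, 0.0626, 0.0834 and 0.0602), and Abcd3 with equal sums (0.105). Equal sums moved the median of all genes for the interaction from 0.09 to 0.20, and quantile normalization moved that for LKO against WT on the control diet from -0.10 to -0.0023. Every group of 4 limits the precision, and the lowest library of any of the 10 genes rested on 74 reads.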
